A study of Mus musculus with 48 samples.

Results

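RNA of medullary sinus macrophages (MSM) was compared between tumor-draining lymph nodes (TDLN) and nodes labelled only as lymph node (LN), after cisplatin in both. The comparison rests on 6 of the 48 libraries of the series, 3 labelled MSM TDLN cisplatin (CIS) and 3 labelled MSM LN CIS, which were chosen by their cell type, tissue and treatment labels. All mice were wild type, the design text describes them as bearing tumors, and cisplatin is a platinum compound that crosslinks DNA. Myeloid cells were sorted from digested nodes, and polyA RNA was sequenced from stranded libraries. The other 14 groups hold MSM after PBS, subcapsular sinus macrophages (SSM) and migratory and resident dendritic cells from the same kinds of node. Neither the tumor, the dose and time of cisplatin, nor the tissue that the LN nodes drained is given. No label states that replicates are separate mice, and the p-values then measure only the spread between these samples, which may be technical.

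Medullary sinus macrophages line the sinuses through which lymph leaves a node. They take up particles, dying cells and microbes from the lymph, and they are recognised by F4/80 (the product of Adgre1), CD169 (Siglec1) and the scavenger receptors MARCO and SIGN-R1 (Cd209b). The title of the study names IL-33, a cytokine released by stressed or dying cells that acts on other cells through ST2, the product of Il1rl1, together with the accessory chain made by Il1rap.

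The 6 libraries held 6.46 to 10.22 M counts. In the LN CIS libraries 18726 to 19114 genes had at least 1 count, against 21598, 24004 and 23719 genes in TDLN CIS 1, 2 and 3. Levels are given as CPM, counts per 1000000 counts of the TMM-scaled library, in the order of replicates 1, 2 and 3. Differences are log2 fold changes, TDLN over LN, with their standard error and the adjusted p (Benjamini-Hochberg, over all genes) of edgeR's quasi-likelihood test, called below 0.05. Coordinates are those of GENCODE vM21 on GRCm38. Mitochondrial genes took 0.334% to 0.675% of the counts.

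The TDLN CIS libraries were not alike. Across 7997 genes the log2 levels of TDLN CIS 1 correlated with TDLN CIS 2 and 3 at 0.694 and 0.703, but with an SSM TDLN CIS library at up to 0.993, whereas TDLN CIS 2 and 3 correlated with each other at 0.989. TDLN CIS 1 thus stands apart from the other libraries of its label, and tests are given with all 3 TDLN libraries and again without it. TDLN CIS 2 and 3 resembled the library labelled SSM TDLN CIS 3 at 0.991 and 0.993. Each TDLN CIS library thus correlated more closely with a library labelled SSM than with any other of its own group. Which of these labels hold was not tested. The 3 LN CIS libraries correlated at 0.991 to 0.994 among themselves. Outside their group they reached 0.752 with a resident dendritic cell library, above the highest values with MSM TDLN CIS (0.698), MSM LN PBS (0.711) and SSM TDLN PBS (0.729) libraries. No pair of libraries within either group differed by as little as sampling noise, with a chi-square per gene of at least 2.00.

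The libraries labelled MSM LN CIS held very little RNA of Adgre1 and Siglec1, by which these macrophages are recognised. They still held 2086, 1980 and 2086 CPM summed over 12 genes of macrophage identity, largely from Lyz2. Adgre1 (ENSMUSG00000004730, chr17:57358691-57483527) measured 3.65, 3.99 and 3.49 CPM in LN CIS, against 168, 526 and 505 CPM in TDLN CIS. The groups did not overlap, as was the case for 57.5% of all genes tested. Siglec1 stood at 0.292, 0 and 0 CPM in LN CIS and Marco at 1.90, 1.12 and 0.624 CPM. In the TDLN, Marco measured 1044, 3.60 and 4.71 CPM and Cd209b 6851, 4.92 and 4.58 CPM, so these receptors were abundant in TDLN CIS 1 alone. The mannose receptor gene Mrc1, with 134, 0.480 and 0.127 CPM in the TDLN and 0.146, 0 and 0.125 CPM in the LN, followed the same pattern and was too low in most libraries to be tested. Over the total count, Marco measured 996, 923 and 3.97 CPM in SSM TDLN CIS and 541, 554 and 554 CPM in SSM LN CIS. With PBS it measured 19.2, 21.1 and 21.3 CPM in SSM TDLN and 1346, 4.63 and 1299 CPM in SSM LN. In MSM with PBS it measured 1.04, 0.485 and 1.18 CPM in the TDLN and 0.610, 1340 and 1.03 CPM in the LN.

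Markers of other cell types were abundant in the LN CIS libraries. Their summed B cell markers reached 7740.4, 7414 and 7687 CPM and their summed MHC class II genes 41136, 39332 and 40942 CPM, with Ccr7, the receptor that guides dendritic and naive T cells into nodes, at 3641, 3432 and 3612 CPM. TDLN CIS 1 lay near them on the B cell sum, with 7390 CPM, while TDLN CIS 2 and 3 held 934 and 971 CPM. Neutrophil markers summed to 1131, 9024 and 9209.6 CPM in the TDLN and 99.1, 97.3 and 101 CPM in the LN. Because these are bulk samples, fewer cells of a type and less RNA per cell cannot be told apart in any value that follows, and the part of these other cells in each difference was not tested.

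**Figure D1:**
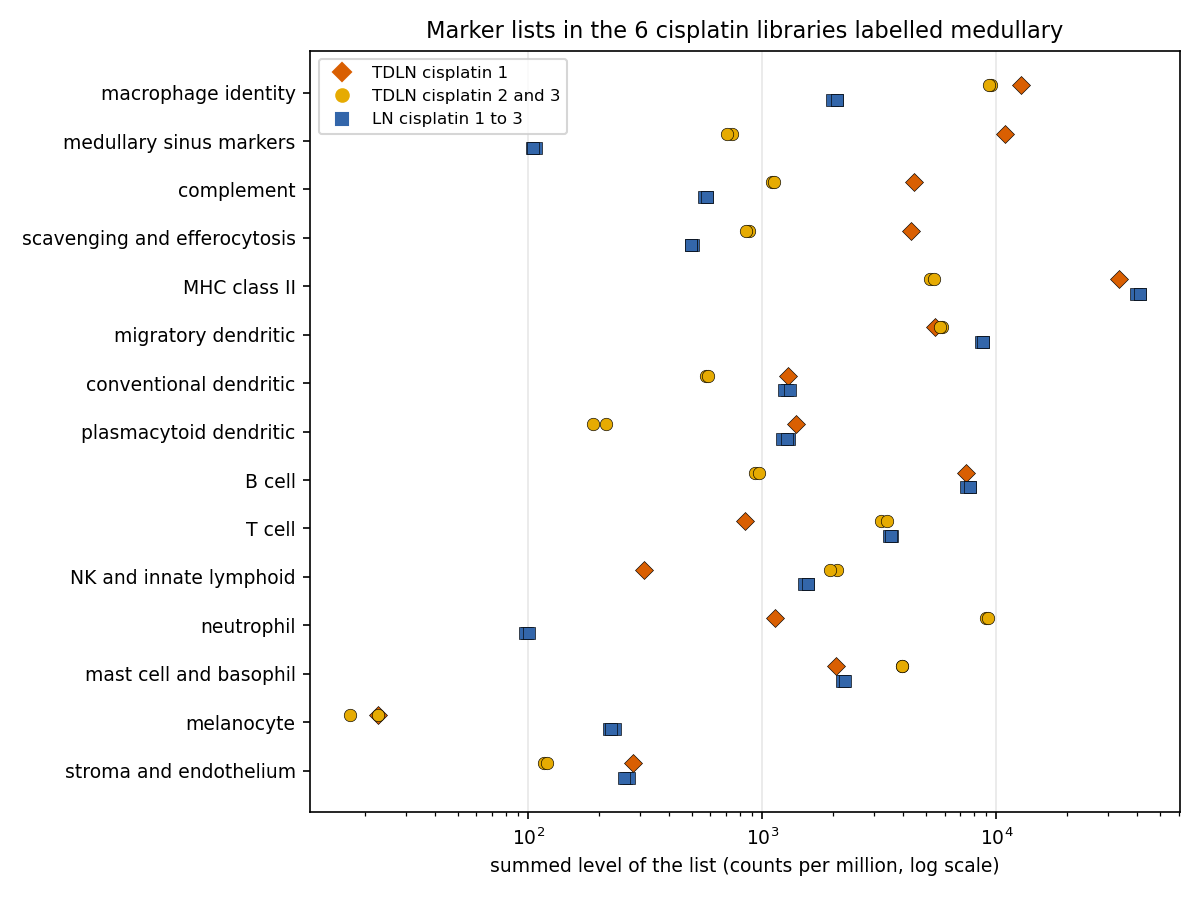
Summed CPM of 15 marker and pathway lists in each of the 6 libraries, on a log axis, with 1 point per library and the groups told apart by colour. The macrophage sum lies between 1980 and 2086 CPM in the LN libraries and between 9331 and 12756 CPM in the TDLN libraries, while TDLN CIS 1 joins the LN libraries on the B cell and MHC class II sums.

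With all 6 libraries, 4546 genes (26.7% of 17002 tested) were higher and 2817 (16.6%) lower in the TDLN. Without TDLN CIS 1, 5821 genes (31.3% of 18596) were higher and 4029 (21.7%) lower. The counts of list members below are to be set against these shares. Of the genes tested both ways, 4169 (24.5%) were called higher and 2685 (15.8%) lower in both. The median log2 fold change over all genes was 0.15 with all libraries and 0.10 without TDLN CIS 1. Against the range of the LN libraries, TDLN CIS 1 lay on the opposite side from TDLN CIS 2 and 3 for 2581 genes (15.2%). Of the genes called higher, 1824 (40.1%) stood at 3 counts or fewer in every LN library, as did 595 (21.1%) of those called lower in every TDLN library.

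**Figure D2:**
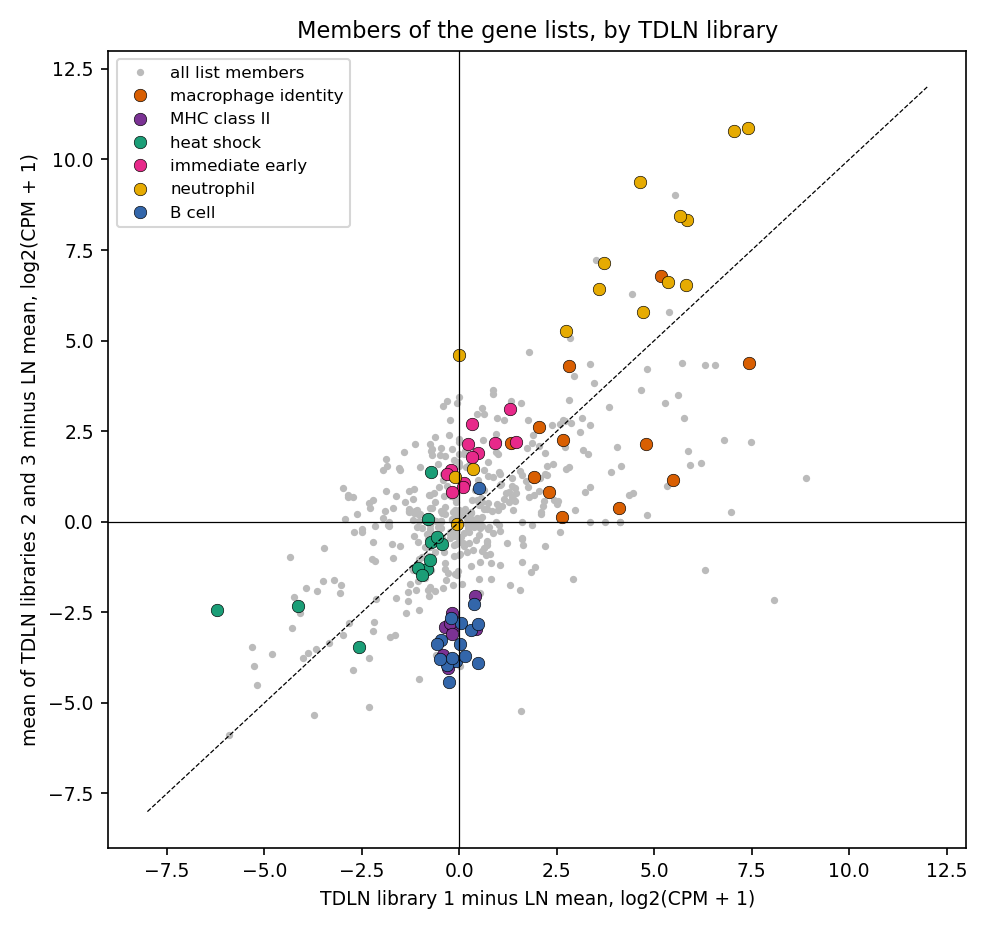
Members of the gene lists as points, with the difference of log2(CPM + 1) from the LN mean in TDLN CIS 1 on the x axis and in the mean of TDLN CIS 2 and 3 on the y axis; the dashed line marks equal differences. Points off the diagonal are genes on which TDLN CIS 1 and the other 2 TDLN libraries differ, such as Cd209b, with 6851 CPM in TDLN CIS 1 and 4.92 and 4.58 CPM in the others.

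Genes of macrophage identity were higher in the TDLN. With all libraries 11 of 12 tested members were called higher, and without TDLN CIS 1 it was 10, with median log2 fold changes of 2.68 and 2.50. Lyz2, which encodes lysozyme and is also abundant in neutrophils, measured 9565, 7325 and 7097 CPM in the TDLN and 1525, 1466 and 1531 CPM in the LN. The difference was 2.41 ± 0.15 (adjusted p = 3.5e-06) with all libraries and 2.26 ± 0.09 (adjusted p = 4.3e-07) without TDLN CIS 1. Spi1, the gene of the myeloid transcription factor PU.1, measured 568, 321 and 397 against 163, 140.3 and 149 CPM (1.51 ± 0.19, adjusted p = 0.00020, and 1.25 ± 0.13, adjusted p = 6.0e-05 without TDLN CIS 1). Maf, a transcription factor of resident macrophages, was at 39.1, 63.3 and 53.5 against 7.31, 10.8 and 7.86 CPM (2.58 ± 0.21, adjusted p = 1.6e-05, and 2.75 ± 0.17, adjusted p = 3.7e-06 without TDLN CIS 1). All 3 TDLN libraries lay above all 3 LN libraries for each of these genes.

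Adgre1 differed by 6.74 ± 0.56 (adjusted p = 1.8e-05) with all libraries and by 7.11 ± 0.42 (adjusted p = 2.6e-06) without TDLN CIS 1. Itgam, the CD11b chain shared by macrophages, neutrophils and some dendritic cells, measured 194, 545 and 550.1 CPM in the TDLN and 32.9, 20.7 and 26.8 CPM in the LN (4.0 ± 0.46, adjusted p = 0.00011, and 4.35 ± 0.34, adjusted p = 1.2e-05 without TDLN CIS 1). For both genes TDLN CIS 1 held less than the other TDLN libraries. Csf1r, through which CSF1 keeps macrophages alive, showed the reverse order within the TDLN, with 1063, 380.4 and 381 CPM against 216, 205 and 229 CPM in the LN. It was called either way (1.49 ± 0.34, adjusted p = 0.0062, and 0.81 ± 0.11, adjusted p = 0.00028 without TDLN CIS 1). Cd68 did not pass the test with all libraries or without TDLN CIS 1, at 456, 78.2 and 81.8 against 73.7, 70.4 and 74.5 CPM. It was called by DESeq2 (1.40, adjusted p = 0.045) and by edgeR without TDLN CIS 2 or 3 (adjusted p of 0.0391 and 0.0429).

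Among markers of the sinus, 5 of 9 tested members were called higher with all libraries, and 3 were higher and 1 lower without TDLN CIS 1, with 3 higher also when any LN library was left out. Vcam1, an adhesion molecule of sinus macrophages and stromal cells, fell into 3 levels, with 238 CPM in TDLN CIS 1, 50.8 and 49.5 CPM in TDLN CIS 2 and 3 and 1.46, 1.74 and 1.37 CPM in the LN (6.19 ± 0.73, adjusted p = 0.00013, and 5.02 ± 0.39, adjusted p = 1.1e-05 without TDLN CIS 1). Timd4, a receptor for phosphatidylserine on dying cells, measured 1391, 36.1 and 33.5 CPM in the TDLN and 6.87, 7.22 and 6.36 CPM in the LN. It was called with all libraries (6.15 ± 1.83, adjusted p = 0.020) but not without TDLN CIS 1 (2.35 ± 1.24, adjusted p = 0.14) nor without any of the LN libraries (adjusted p of 0.0723 to 0.0742). Marco (8.18 ± 3.16, adjusted p = 0.058, and 1.79 ± 2.80, adjusted p = 0.63 without TDLN CIS 1) and Cd209b (6.53 ± 3.10, adjusted p = 0.11) did not pass the test with all libraries, and the difference in Cd209b was negative without TDLN CIS 1 (-2.37 ± 2.40, adjusted p = 0.43).

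Scavenging genes, which encode receptors and bridging proteins for dying cells and modified lipoproteins, were mostly higher. Of 21 tested members 14 were called higher and 1 lower with all libraries, and 12 and 2 without TDLN CIS 1 (median 2.43 and 2.03). Colec12, a collectin scavenger receptor, measured 24.9, 28.1 and 24.2 CPM in the TDLN and 3.65, 3.36 and 1.87 CPM in the LN (3.12 ± 0.25, adjusted p = 1.6e-05, and 3.14 ± 0.26, adjusted p = 1.6e-05 without TDLN CIS 1). Stab2, a hyaluronan receptor of sinus lining cells, measured 63, 43.7 and 36 against 11, 7.35 and 8.23 CPM (2.43 ± 0.24, adjusted p = 4.1e-05, and 2.17 ± 0.19, adjusted p = 2.6e-05 without TDLN CIS 1). The TDLN libraries were close to each other for both genes and far above the LN. Cd300a, an inhibitory receptor for phosphatidylserine, was at 179, 195 and 174 against 41.2, 45.6 and 40.5 CPM (2.11 ± 0.24, adjusted p = 9.5e-05, and 2.12 ± 0.25, adjusted p = 0.00013 without TDLN CIS 1). Lrp1, a large endocytic receptor, had 29.5, 10.6 and 17.7 CPM in the TDLN and 5 counts in all in the LN (adjusted p = 4.4e-05, and 2.4e-05 without TDLN CIS 1). Mfge8, named after its values were seen, bridges phosphatidylserine to integrins and went the other way, with 61.6, 102 and 123 CPM against 177, 173 and 184 CPM (-0.90 ± 0.21, adjusted p = 0.0074, and -0.67 ± 0.14, adjusted p = 0.0035 without TDLN CIS 1).

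Of 12 complement genes 9 were called higher with all libraries, 3 or 4 when any LN library was left out, and 6 without TDLN CIS 1, where 1 was also lower. C1qa, part of the recognition molecule of the classical pathway and a hallmark of resident macrophages, measured 514, 20.3 and 22.5 CPM in the TDLN and 3.65, 3.49 and 3.87 CPM in the LN. Most of its difference came with TDLN CIS 1 (5.66 ± 1.39, adjusted p = 0.0087, and 2.54 ± 0.81, adjusted p = 0.024 without it). C1qb and C1qc were called only with that library (without it the adjusted p was 0.10 and 0.32), and leaving out any LN library also lost both calls (adjusted p of 0.0600 to 0.0618 and 0.0857 to 0.0949). Cfb, factor B of the alternative pathway, was at 439, 278 and 281 against 173, 154 and 154 CPM (1.05 ± 0.18, adjusted p = 0.0013, and 0.80 ± 0.12, adjusted p = 0.00050 without TDLN CIS 1). Of 6 Fc receptor genes 3 were called higher in either case, and 1 was lower without TDLN CIS 1. That gene was Fcgrt, of the neonatal Fc receptor (-0.54 ± 0.37, adjusted p = 0.25, and -1.28 ± 0.14, adjusted p = 8.8e-05 without TDLN CIS 1). Fcgr3, an activating receptor for IgG complexes, measured 239, 99.1 and 95.3 CPM in the TDLN and 35.8, 31 and 32.8 CPM in the LN (2.12 ± 0.36, adjusted p = 0.0011, and 1.55 ± 0.23, adjusted p = 0.00050 without TDLN CIS 1). Fcer1g, its signalling chain, was at 512, 366 and 408 against 235, 221 and 209.9 CPM (0.95 ± 0.13, adjusted p = 0.00039, and 0.80 ± 0.09, adjusted p = 0.00013 without TDLN CIS 1). The inhibitory Fcgr2b did not pass the test (-0.30 ± 0.14, adjusted p = 0.098, and -0.34 ± 0.14, adjusted p = 0.068 without TDLN CIS 1).

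Lysosomal genes were divided. With all libraries 7 of 26 were called higher, close to the share over all genes, and 1 lower, below that share, and without TDLN CIS 1 there were 7 in each direction. The cathepsin gene Ctsd measured 915, 1177 and 1174 CPM in the TDLN and 457, 451 and 459 CPM in the LN (1.26 ± 0.14, adjusted p = 9.3e-05, and 1.37 ± 0.11, adjusted p = 1.2e-05 without TDLN CIS 1). Cd63, a membrane protein of late endosomes, was at 516, 307 and 322 against 105, 104 and 116 CPM (1.82 ± 0.22, adjusted p = 0.00016, and 1.53 ± 0.17, adjusted p = 8.6e-05 without TDLN CIS 1). Of 12 genes of iron and heme handling 5 were called higher with all libraries, 2 without TDLN CIS 1 and 1 or 2 without any LN library. The share over all genes was 26.7% with all libraries and 31.3% without TDLN CIS 1. Slc40a1, the iron exporter ferroportin, measured 91.1, 52.6 and 46.6 CPM in the TDLN and 19, 20.8 and 17.8 CPM in the LN (1.72 ± 0.28, adjusted p = 0.00098, and 1.37 ± 0.23, adjusted p = 0.0011 without TDLN CIS 1).

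Cholesterol genes included both synthesis and export. With all libraries 11 of 19 were called higher and 2 lower, with the same counts without TDLN CIS 1 (median 1.01 and 0.84). Hmgcs1 (ENSMUSG00000093930, chr13:119690379-119708260), which makes the substrate of the rate-limiting step, measured 58, 73.7 and 70.4 CPM in the TDLN and 8.91, 13.1 and 9.36 CPM in the LN (2.69 ± 0.23, adjusted p = 1.9e-05, and 2.78 ± 0.23, adjusted p = 1.7e-05 without TDLN CIS 1). Dhcr7, the enzyme of the last step, was at 23.3, 38.1 and 36.7 against 7.16, 7.47 and 8.23 CPM (2.10 ± 0.19, adjusted p = 3.0e-05, and 2.29 ± 0.12, adjusted p = 1.3e-06 without TDLN CIS 1). Mvd, an enzyme of the mevalonate stretch, was at 36.9, 31 and 34.2 against 12.1, 11.1 and 12.1 CPM (1.53 ± 0.16, adjusted p = 7.0e-05, and 1.47 ± 0.17, adjusted p = 0.00011 without TDLN CIS 1). In all 3 synthesis genes the TDLN libraries lay together above the LN. Srebf2, which encodes the transcription factor that activates this pathway, was lower, at 182, 159 and 177 against 402, 379 and 377 CPM (-1.16 ± 0.13, adjusted p = 0.00011, and -1.20 ± 0.15, adjusted p = 0.00015 without TDLN CIS 1). Abcg1, a cholesterol exporter, measured 76.9, 42.5 and 43.7 against 11.4, 13.4 and 16.2 CPM (1.99 ± 0.27, adjusted p = 0.00032, and 1.65 ± 0.22, adjusted p = 0.00024 without TDLN CIS 1). Apoe, the apolipoprotein of macrophages, was named after its values were seen and differed in size between TDLN libraries, with 9224, 1449 and 1534 CPM against 524, 489 and 535 CPM in the LN (2.98 ± 0.78, adjusted p = 0.012, and 1.53 ± 0.53, adjusted p = 0.034 without TDLN CIS 1).

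**Figure D3:**
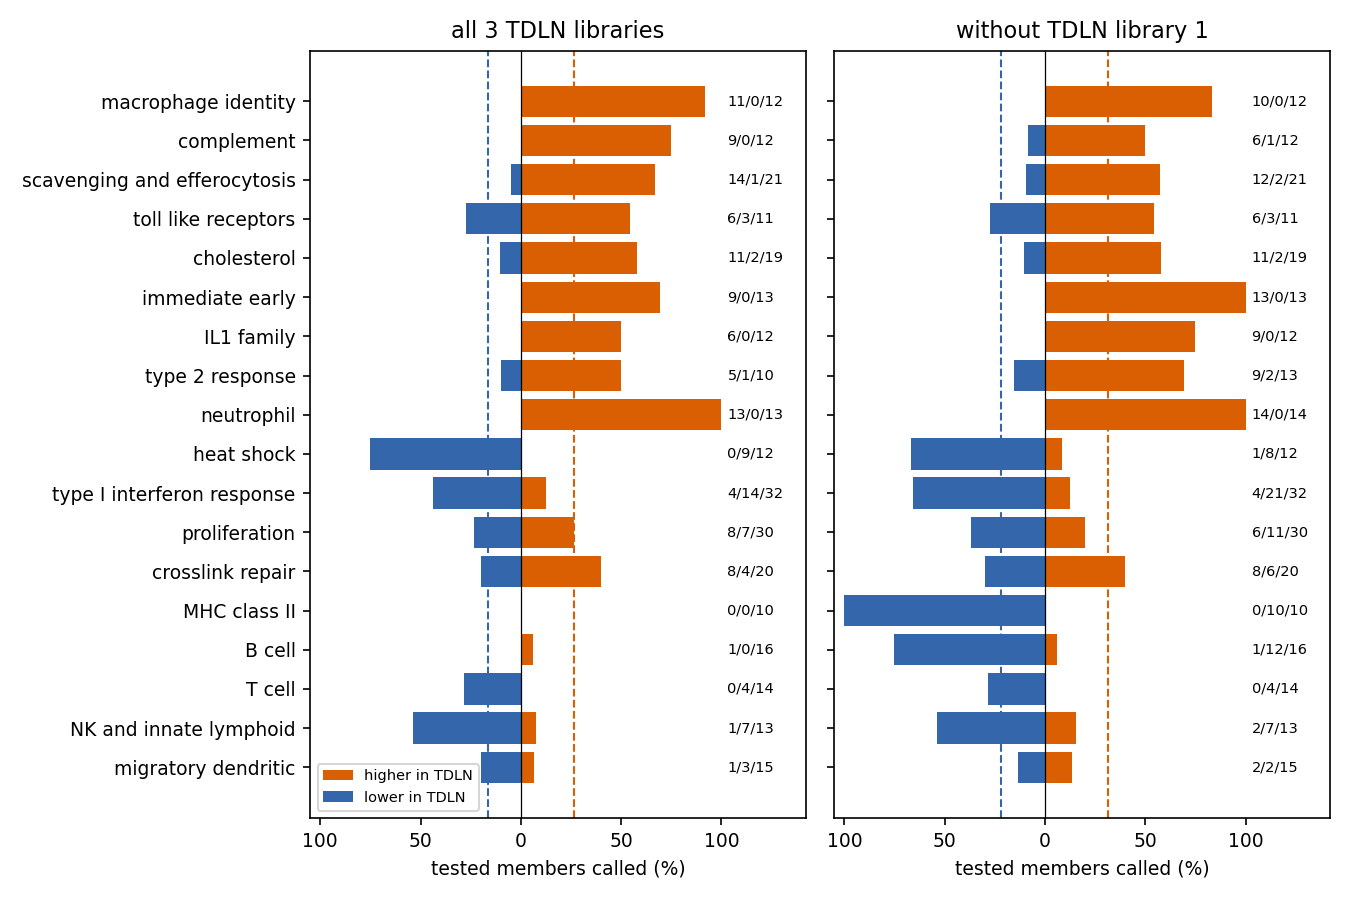
Percent of the tested members of 18 gene lists called higher or lower in the TDLN, with all 6 libraries and without TDLN CIS 1; the figures give members higher, lower and tested, and the dashed lines mark the percent over all genes. The MHC class II list goes from 0 of 10 called with all libraries to 10 of 10 lower without TDLN CIS 1, while the heat-shock list stays below the LN in both (9 and 8 of 12).

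Toll-like receptors, which sense microbial molecules, split by gene. Of 11 tested receptors 6 were called higher and 3 lower in the TDLN, whether or not TDLN CIS 1 was included. Tlr7 (ENSMUSG00000044583, chrX:167304929-167330558), an endosomal receptor for single-stranded RNA abundant in plasmacytoid dendritic and B cells, measured 22.8, 9.0 and 10.4 CPM in the TDLN and 54.1, 64.5 and 62.8 CPM in the LN (-2.10 ± 0.36, adjusted p = 0.0014, and -2.64 ± 0.29, adjusted p = 8.7e-05 without TDLN CIS 1). Tlr12, an endosomal receptor for protozoan profilin, was at 18.1, 9.0 and 9.93 against 46.3, 44.1 and 49.9 CPM (-1.92 ± 0.26, adjusted p = 0.00035, and -2.30 ± 0.19, adjusted p = 1.8e-05 without TDLN CIS 1). In both cases TDLN CIS 1 lay between the other TDLN libraries and the LN. Plasmacytoid dendritic cell markers summed to 1390.3, 189.9 and 216 CPM in the TDLN and 1294, 1218 and 1277 CPM in the LN. Of 10 markers 4 were lower with all libraries, 8 lower and 1 higher without TDLN CIS 1 and 2 lower without any LN library or TDLN CIS 3. Their part in these differences was not tested. Tlr6, which pairs with TLR2 to sense bacterial lipopeptides, was at 9.22, 21 and 17.7 CPM in the TDLN and had no count in the LN, at least 40.4-fold higher when each LN library is set to 3 counts (adjusted p = 7.4e-05, and 5.5e-05 without TDLN CIS 1). Tlr3, the receptor for double-stranded RNA, was likewise without a count in the LN and at 2.73, 4.92 and 3.56 CPM in the TDLN, at least 9.46-fold higher (adjusted p = 5.6e-05, and 4.2e-05 without TDLN CIS 1). Tlr13, a receptor for bacterial ribosomal RNA, measured 23.6, 94.4 and 80.8 CPM in the TDLN and had 3 counts in all in the LN (adjusted p = 1.8e-05, and 5.4e-07 without TDLN CIS 1).

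Genes of the type I interferon response were lower more often than higher. With all libraries 14 of 32 were called lower and 4 higher, and without TDLN CIS 1 it was 21 and 4 (median -0.59 and -0.77). Leaving out any other of the 6 libraries gave 8 to 10 lower and 3 or 4 higher. Oas2 (ENSMUSG00000032690, chr5:120730333-120749853), which makes the second messenger that activates RNase L, measured 8.41, 4.32 and 4.45 CPM in the TDLN and 42.1, 41.3 and 45.3 CPM in the LN (-2.90 ± 0.31, adjusted p = 7.1e-05, and -3.29 ± 0.27, adjusted p = 1.5e-05 without TDLN CIS 1). Oasl1, a regulator of IRF7 translation, was at 21.6, 7.32 and 6.87 against 71.2, 71.6 and 68.2 CPM (-2.55 ± 0.47, adjusted p = 0.0019, and -3.31 ± 0.39, adjusted p = 0.00012 without TDLN CIS 1). Ifih1, the RNA sensor MDA5, was at 22.4, 14.4 and 15.3 against 39.6, 46.3 and 41.7 CPM (-1.29 ± 0.22, adjusted p = 0.0014, and -1.52 ± 0.21, adjusted p = 0.00030 without TDLN CIS 1). The TDLN libraries all lay below the LN for these sensors and effectors, TDLN CIS 1 the least. Usp18, which restrains interferon receptor signalling, was at 36.6, 40.6 and 39.2 against 69.7, 60.9 and 66.6 CPM (-0.76 ± 0.11, adjusted p = 0.00055, and -0.72 ± 0.11, adjusted p = 0.00064 without TDLN CIS 1). Zbp1, a sensor of Z-form nucleic acid, was at 39, 40.5 and 36 against 81, 75.5 and 73.7 CPM (-0.99 ± 0.17, adjusted p = 0.0012, and -1.0 ± 0.18, adjusted p = 0.0017 without TDLN CIS 1). Herc6, the ligase for the ubiquitin-like ISG15 in mice, was higher in the TDLN, at 21.6, 16.9 and 17.6 against 6.58, 7.10 and 5.74 CPM (1.53 ± 0.23, adjusted p = 0.00061, and 1.41 ± 0.23, adjusted p = 0.00091 without TDLN CIS 1).

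Of 12 genes of the IL-1 family and its receptors, 6 were called higher with all libraries and 9 without TDLN CIS 1 (median 1.74 and 1.73). The shares over all genes were 26.7% and 31.3%. Il1rl1 (ENSMUSG00000026069, chr1:40429570-40465415), which encodes the IL-33 receptor ST2, measured 13.4, 73.1 and 60.6 CPM in the TDLN and 0.585, 1.87 and 0.624 CPM in the LN. Every TDLN library lay above the LN and TDLN CIS 1 was the lowest of them, for a difference of 5.54 ± 0.81 (adjusted p = 0.00049), or 5.98 ± 0.62 (adjusted p = 6.2e-05) without TDLN CIS 1. Il1rap, the co-receptor of ST2 and of the IL-1 receptor, measured 7.70, 18.7 and 13.7 CPM in the TDLN and 3.07, 4.36 and 3.24 CPM in the LN (1.90 ± 0.43, adjusted p = 0.0056, and 2.18 ± 0.39, adjusted p = 0.0015 without TDLN CIS 1). Il33 (ENSMUSG00000024810, chr19:29925114-29960718) itself had counts in TDLN CIS 1 alone, at 9.22 CPM, and none in the other 5 libraries, and it did not pass the test (adjusted p = 0.13). The level of Il33 in TDLN CIS 2 and 3 was below 0.360 and 0.382 CPM, the CPM of 3 counts.

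Other members of the family behaved differently from each other. Il18, an inflammasome-dependent cytokine, measured 81.8, 20.2 and 20.2 CPM in the TDLN and 4.97, 3.74 and 3.49 CPM in the LN (3.33 ± 0.59, adjusted p = 0.0015, and 2.31 ± 0.37, adjusted p = 0.00081 without TDLN CIS 1). Its soluble inhibitor Il18bp was at 47.5, 21 and 19 against 9.65, 12 and 10.5 CPM (1.45 ± 0.30, adjusted p = 0.0036, and 0.90 ± 0.12, adjusted p = 0.00022 without TDLN CIS 1). Il18r1, the IL-18 receptor chain, was at 16.7, 156 and 136 against 17.7, 20.8 and 21.5 CPM. TDLN CIS 1 lay below the LN and the others far above. Its call with all libraries (2.37 ± 0.71, adjusted p = 0.022) was lost without any LN library or without TDLN CIS 2 or 3 (adjusted p of 0.0613 to 0.0752), whereas without TDLN CIS 1 the difference was 2.87 ± 0.46 (adjusted p = 0.00084). Il1b, the secreted IL-1 of myeloid cells, and its antagonist Il1rn passed the test only without TDLN CIS 1. Il1b measured 422, 1392 and 1389 CPM in the TDLN and 579, 554 and 549.7 CPM in the LN (1.31 ± 0.45, adjusted p = 0.034 without TDLN CIS 1). Il1rn was at 46.9, 304 and 303 against 56.6, 59.2 and 54.5 CPM (2.42 ± 0.63, adjusted p = 0.0097 without TDLN CIS 1). Both genes are abundant in neutrophils, whose summed markers stood at 1131 CPM in TDLN CIS 1 and at 9024 and 9210 CPM in TDLN CIS 2 and 3. The part of neutrophils in these values was not tested.

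Genes linked to type 2 immunity, in which ST2 takes part, were higher in 5 and lower in 1 of 10 tested members, and in 9 and 2 of 13 without TDLN CIS 1. The shares over all genes were 26.7% and 16.6% with all libraries, and 31.3% and 21.7% without TDLN CIS 1. Without any other of the 6 libraries 3 were higher and 1 or 2 lower. Il13ra1 (ENSMUSG00000017057, chrX:36112110-36171259), a receptor chain for IL-4 and IL-13 on macrophages, measured 57.9, 89 and 68.1 CPM in the TDLN and 0.292, 0.623 and 0.374 CPM in the LN (7.31 ± 0.32, adjusted p = 4.6e-07, and 7.44 ± 0.29, adjusted p = 3.3e-07 without TDLN CIS 1). Its partner chain Il4ra was lower, at 322, 527 and 531 against 1091, 1015 and 1069 CPM (-1.20 ± 0.18, adjusted p = 0.00060, and -1.0 ± 0.10, adjusted p = 5.5e-05 without TDLN CIS 1). The 2 chains of 1 receptor thus differed in opposite directions, each with no overlap between the groups. Mgl2, a lectin of alternatively activated macrophages and dermal dendritic cells, was at 5.37, 6.48 and 5.47 CPM in the TDLN and had no count in the LN, at least 14.6-fold higher (adjusted p = 2.9e-05, and 4.2e-05 without TDLN CIS 1). Chil3, a chitinase-like protein of alternatively activated macrophages and neutrophils, measured 60.5, 687 and 668 CPM in the TDLN and 0.585, 0.125 and 0.25 CPM in the LN (10.51 ± 1.24, adjusted p = 0.00013, and 11.03 ± 0.82, adjusted p = 8.7e-06 without TDLN CIS 1). TDLN CIS 1 was the lowest of the TDLN libraries, as in the neutrophil sum.

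**Figure D4:**
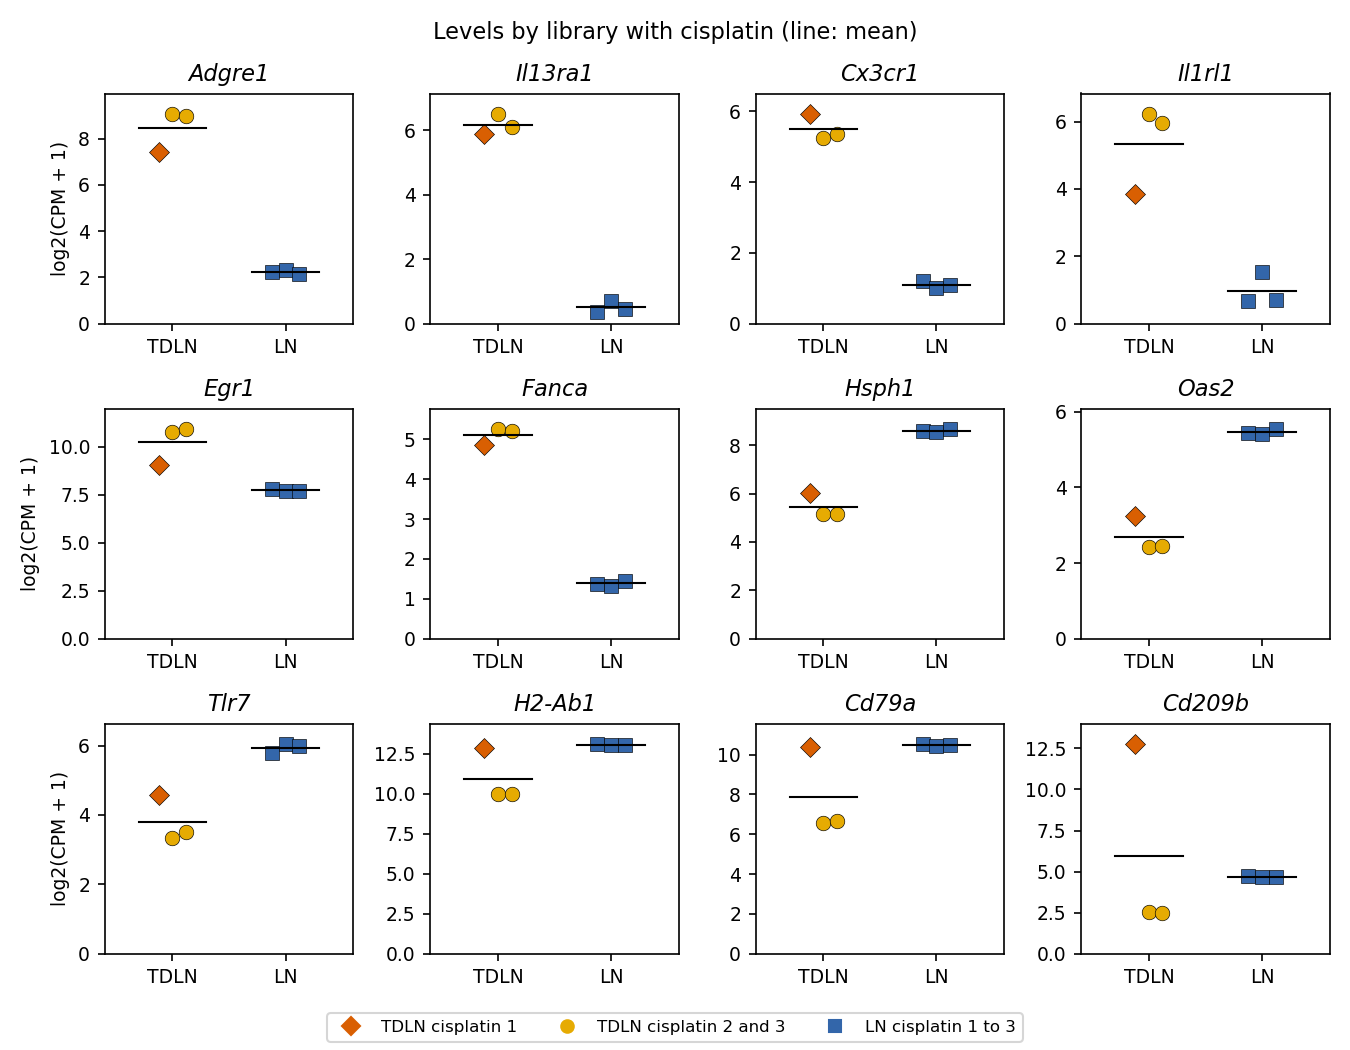
Level of 12 genes in each library as log2(CPM + 1), with TDLN and LN libraries side by side and a line at each group's mean. Adgre1, Il13ra1, Cx3cr1, Il1rl1, Egr1 and Fanca lie above the LN in all 3 TDLN libraries and Hsph1, Oas2 and Tlr7 below it, while H2-Ab1, Cd79a and Cd209b part TDLN CIS 1 from the other TDLN libraries.

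MHC class II genes, which present antigen to CD4 T cells, rest on which TDLN libraries are used. With all libraries 0 of 10 were called by edgeR (median -1.39), 4 were lower at an unadjusted p under 0.05, and DESeq2 called 3 lower, while its size factors or a replicate block gave 1. Without TDLN CIS 1 edgeR called all 10 lower (median -2.91) and DESeq2 8. H2-Ab1 (ENSMUSG00000073421, chr17:34257689-34269419), a beta chain, measured 7411, 984 and 1001 CPM in the TDLN and 8582, 8337 and 8511 CPM in the LN (-1.44 ± 0.66, adjusted p = 0.098, and -3.10 ± 0.23, adjusted p = 9.6e-06 without TDLN CIS 1). Cd74, the invariant chain, was at 16339, 2766 and 2873 against 21555, 20484 and 21497 CPM (-1.53 ± 0.61, adjusted p = 0.063, and -2.91 ± 0.32, adjusted p = 7.7e-05 without TDLN CIS 1). Ciita, the transcriptional activator of class II genes, was at 492, 43.5 and 49.1 against 379, 356 and 364 CPM (-0.91 ± 0.86, adjusted p = 0.41, and -2.98 ± 0.62, adjusted p = 0.0033 without TDLN CIS 1). TDLN CIS 1 was near the LN libraries for all of these, and for Ciita above them, whereas TDLN CIS 2 and 3 were far below.

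Of 13 genes of MHC class I presentation 1 was called lower with all libraries, and 2 were lower and 1 higher without TDLN CIS 1. Tap1, a subunit of the peptide transporter, measured 229, 196 and 197 CPM in the TDLN and 358, 332 and 365 CPM in the LN (-0.76 ± 0.13, adjusted p = 0.0011, and -0.84 ± 0.12, adjusted p = 0.00038 without TDLN CIS 1). The class I heavy chain H2-K1 was at 2509.5, 3273 and 3438 against 3715, 3606 and 3746 CPM and did not pass the test (-0.26 ± 0.15, adjusted p = 0.17, and -0.14 ± 0.11, adjusted p = 0.33 without TDLN CIS 1). Among 14 costimulatory and checkpoint genes 1 was called lower with all libraries, a call lost without any other of the 6 libraries, while 2 were higher and 3 lower without TDLN CIS 1.

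Chemokine genes were called higher in 5 and lower in 1 of 18 with all libraries. This is near the 26.7% higher and below the 16.6% lower over all genes. Without TDLN CIS 1 it was 8 and 3 of 19, against 31.3% and 21.7% over all genes. Leaving out any other of the 6 libraries gave 2 or 3 higher and 0 to 2 lower. Ccl6, made by macrophages, neutrophils and eosinophils, measured 88, 733 and 585 CPM in the TDLN and 19.4, 30.6 and 23.7 CPM in the LN (4.25 ± 0.89, adjusted p = 0.0038, and 4.74 ± 0.73, adjusted p = 0.00060 without TDLN CIS 1). Cxcl2, an attractant of neutrophils, was at 28.4, 186 and 208 against 14.9, 15.3 and 15 CPM (3.22 ± 0.81, adjusted p = 0.0097, and 3.71 ± 0.66, adjusted p = 0.0015 without TDLN CIS 1). TDLN CIS 1 lay between the LN and the other TDLN libraries for both. Of 14 chemokine receptors 5 were called higher and 4 lower, or 8 and 4 without TDLN CIS 1, 4 and 1 without any LN library and 4 and 2 without TDLN CIS 2 or 3. Cx3cr1 (ENSMUSG00000052336, chr9:119901616-120069879), the fractalkine receptor of monocytes and resident macrophages, measured 59.2, 37 and 40.1 CPM in the TDLN and 1.32, 0.996 and 1.12 CPM in the LN (5.30 ± 0.23, adjusted p = 4.6e-07, and 5.06 ± 0.15, adjusted p = 1.0e-07 without TDLN CIS 1). Ccr3, the eotaxin receptor of eosinophils and basophils, measured 10.9, 169 and 140.0 CPM in the TDLN and had 1 count in the LN (adjusted p = 0.00080, and 0.00013 without TDLN CIS 1). For Ccr7, at 1484, 1070.0 and 1105 CPM in the TDLN, the call with all libraries (-1.55 ± 0.57, adjusted p = 0.049) was lost without TDLN CIS 1 (-1.71 ± 0.69, adjusted p = 0.059) and without any other of the 6 libraries (adjusted p of 0.0984 to 0.129).

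Immediate-early genes, which respond within minutes to stimulation, were higher in the TDLN, mainly in TDLN CIS 2 and 3. With all libraries 9 of 13 and without TDLN CIS 1 all 13 were called higher (median 1.45 and 1.80). For 9 members all 3 TDLN libraries lay above the LN, while for 4 TDLN CIS 1 lay below the LN and the others above. The list summed to 9724, 24530 and 28158 CPM in the TDLN and 9504, 8776 and 9509 CPM in the LN. Egr1, an early growth response transcription factor, measured 524, 1760.5 and 1930.1 CPM in the TDLN and 219.8, 206 and 208 CPM in the LN (2.73 ± 0.38, adjusted p = 0.00036, and 3.13 ± 0.09, adjusted p = 1.0e-07 without TDLN CIS 1). Its relative Egr2 was at 105, 173 and 183 against 41.9, 35 and 37.4 CPM (2.01 ± 0.20, adjusted p = 4.1e-05, and 2.22 ± 0.11, adjusted p = 1.2e-06 without TDLN CIS 1). Atf3, a stress-induced repressor, was at 186, 431 and 456 against 108, 88.9 and 95.6 CPM (1.87 ± 0.31, adjusted p = 0.0010, and 2.18 ± 0.18, adjusted p = 1.7e-05 without TDLN CIS 1). TDLN CIS 1 was the lowest TDLN library for each, and still above the LN. Fos, a subunit of AP-1, measured 1202, 3211 and 3409 CPM in the TDLN and 968, 916 and 974 CPM in the LN (1.45 ± 0.32, adjusted p = 0.0051, and 1.80 ± 0.14, adjusted p = 1.3e-05 without TDLN CIS 1).

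Of 15 NF-kB genes 4 were called higher and 2 lower with all libraries, near the 26.7% and 16.6% over all genes, and 7 and 3 without TDLN CIS 1. Tnf, the cytokine, measured 27.3, 161 and 173 CPM in the TDLN and 18.3, 16.7 and 18.7 CPM in the LN (2.75 ± 0.65, adjusted p = 0.0071, and 3.22 ± 0.45, adjusted p = 0.00035 without TDLN CIS 1). The subunit gene Rel was lower, at 129.6, 133 and 115 against 278, 337 and 298 CPM (-1.27 ± 0.12, adjusted p = 3.9e-05, and -1.29 ± 0.13, adjusted p = 5.8e-05 without TDLN CIS 1). The TDLN libraries were close together. Nfkb1, another subunit, was at 95.2, 101 and 104 against 66.3, 60.5 and 66.9 CPM (0.63 ± 0.16, adjusted p = 0.010, and 0.67 ± 0.17, adjusted p = 0.0083 without TDLN CIS 1).

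Heat-shock genes, which encode chaperones that refold damaged proteins, were lower in the TDLN. With all libraries 9 of 12 were called lower, and without TDLN CIS 1 it was 8 lower and 1 higher (median -1.05 and -1.18). Hsph1 (ENSMUSG00000029657, chr5:149614287-149636376), a nucleotide exchange factor of HSP70, measured 64.2, 34.8 and 34.2 CPM in the TDLN and 388, 377 and 401 CPM in the LN (-3.13 ± 0.23, adjusted p = 8.4e-06, and -3.49 ± 0.10, adjusted p = 1.0e-07 without TDLN CIS 1). The mitochondrial chaperonin Hspd1 was at 97.7, 82.5 and 85.8 against 200.2, 214 and 201 CPM (-1.21 ± 0.12, adjusted p = 4.5e-05, and -1.29 ± 0.11, adjusted p = 1.9e-05 without TDLN CIS 1). Its co-chaperonin Hspe1 was at 50.8, 38.1 and 31.8 against 99.2, 104 and 94.6 CPM (-1.30 ± 0.16, adjusted p = 0.00018, and -1.51 ± 0.12, adjusted p = 1.2e-05 without TDLN CIS 1). The groups did not overlap and the 3 LN libraries lay close together for each. Hsp90aa1, a cytosolic HSP90, measured 254, 185 and 176 CPM in the TDLN and 434, 462 and 450.1 CPM in the LN (-1.13 ± 0.15, adjusted p = 0.00026, and -1.32 ± 0.10, adjusted p = 1.1e-05 without TDLN CIS 1). The inducible HSP70 genes Hspa1a and Hspa1b are near-identical copies whose reads cannot be assigned with certainty. Hspa1a was listed at 17.6, 61.2 and 69 against 345, 310.3 and 334 CPM (-2.74 ± 0.47, adjusted p = 0.0012, and -2.34 ± 0.32, adjusted p = 0.00033 without TDLN CIS 1).

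Hspd1 and Hspe1 lie head to head and share a promoter, which is shown because both genes were lower and because it holds a heat-shock element, the binding motif of the HSF1 factor. The stretch between the 2 start sites, chr1:55087933-55088147 on the plus strand of GRCm38.p6 (RefSeq), reads 5′ to 3′ with the element in capitals:
Hspd1 and Hspe1 promoter: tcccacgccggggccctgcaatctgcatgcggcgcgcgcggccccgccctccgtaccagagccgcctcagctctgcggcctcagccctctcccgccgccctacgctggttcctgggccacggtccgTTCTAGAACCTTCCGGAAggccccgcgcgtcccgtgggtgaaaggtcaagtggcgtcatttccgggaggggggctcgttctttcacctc
The capitals are 2 overlapping matches that span 18 bases, 72 bases from the Hspe1 start and 127 bases from the Hspd1 start. The motif searched was GAANNTTCNNGAA on either strand (TTCNNGAANNTTC on the other). In windows from 250 bases before to 50 after each start it occurred in 198 of 32851 windows (0.603%). Counted by gene, any window of 179 of 27025 genes held it (0.662%). Of the 12 heat-shock genes 9 had a promoter in the table, and 3 of these held the motif. They were Hsph1, Hspd1 and Hspe1, all among the 6 with a promoter that were called lower in both fits. For the interferon list the same search used GAAANNGAAA, the core of the interferon-stimulated response element. This motif was found in 12 of 22 genes with a promoter, against 3.99% of all 27025 genes. It was in 2 of the 7 with a promoter that were called lower in both fits and 10 of the other 15. The whole list had 14 genes called lower in both fits, so those without a promoter were not searched. A match is a description of letters and not of binding.

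Genes of the response to DNA damage were not uniform. Of 19 p53 targets 7 were called higher and 2 lower with all libraries, and 9 and 1 without TDLN CIS 1. The shares over all genes were 26.7% and 16.6% with all libraries, and 31.3% and 21.7% without TDLN CIS 1. Leaving out any other of the 6 libraries gave 4 higher and 1 or 2 lower. Pmaip1, the pro-apoptotic NOXA, measured 109, 315 and 292 CPM in the TDLN and 53.3, 62.5 and 52.7 CPM in the LN (2.09 ± 0.38, adjusted p = 0.0017, and 2.43 ± 0.25, adjusted p = 5.4e-05 without TDLN CIS 1). Phlda3, an inhibitor of AKT, was at 7.90, 5.16 and 7.51 CPM in the TDLN and had no count in the LN, at least 17.3-fold higher (adjusted p = 1.1e-05, and 1.6e-05 without TDLN CIS 1). Ercc5, an endonuclease of nucleotide excision repair, was lower, at 21, 13.6 and 13.4 against 36.7, 35.5 and 33.2 CPM (-1.13 ± 0.25, adjusted p = 0.0051, and -1.38 ± 0.23, adjusted p = 0.0011 without TDLN CIS 1).

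Interstrand crosslinks are a kind of damage that cisplatin causes. Of 20 genes of their repair 8 were called higher and 4 lower with all libraries, and 8 and 6 without TDLN CIS 1. The shares over all genes were 26.7% and 16.6% with all libraries, and 31.3% and 21.7% without TDLN CIS 1. Fanca (ENSMUSG00000032815, chr8:123268300-123318576), a subunit of the Fanconi core complex, measured 27.9, 37.1 and 35.8 CPM in the TDLN and 1.61, 1.49 and 1.75 CPM in the LN (4.36 ± 0.30, adjusted p = 5.9e-06, and 4.48 ± 0.30, adjusted p = 4.8e-06 without TDLN CIS 1). Brca1 was at 6.69, 13.8 and 16.7 CPM in the TDLN and had no count in the LN, at least 31.3-fold higher (adjusted p = 0.00096, and 0.00052 without TDLN CIS 1). Fancg, another subunit of the core complex, was lower, at 32.3, 33.5 and 33.7 against 55.5, 54.5 and 55.3 CPM (-0.73 ± 0.11, adjusted p = 0.00068, and -0.71 ± 0.11, adjusted p = 0.00053 without TDLN CIS 1). Members of 1 complex thus differed in opposite directions, with no overlap between the groups for Fanca or Fancg.

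Of 30 proliferation genes 8 were called higher and 7 lower with all libraries, near the 26.7% and 16.6% over all genes, and without TDLN CIS 1 6 and 11 (median 0.08 and -0.52). Mcm2, a subunit of the replicative helicase, measured 80.1, 55 and 48.7 CPM in the TDLN and 196, 200.2 and 205 CPM in the LN (-1.71 ± 0.20, adjusted p = 0.00013, and -1.95 ± 0.17, adjusted p = 2.4e-05 without TDLN CIS 1). Mcm4, of the same helicase, was at 86.6, 91.2 and 90.9 against 140.1, 140.1 and 130.3 CPM (-0.61 ± 0.11, adjusted p = 0.0020, and -0.59 ± 0.11, adjusted p = 0.0020 without TDLN CIS 1). Other members of the list were higher. Tpx2, a spindle assembly factor, measured 17.5, 9.97 and 11.6 CPM in the TDLN and 0.146, 0.125 and 0.624 CPM in the LN (5.36 ± 0.57, adjusted p = 7.0e-05, and 5.08 ± 0.54, adjusted p = 6.9e-05 without TDLN CIS 1). Kif20a, a kinesin of cytokinesis, was at 17.9, 7.08 and 6.49 against 1.46, 1.87 and 2.25 CPM (2.49 ± 0.47, adjusted p = 0.0021, and 1.85 ± 0.35, adjusted p = 0.0020 without TDLN CIS 1). Of 17 genes of glycolysis and hypoxia 3 were called higher and 2 lower with all libraries, both below the 26.7% and 16.6% over all genes. Without TDLN CIS 1 it was 7 and 2, against 31.3% and 21.7% over all genes. Without any other of the 6 libraries it was 2 or 3 and 0 or 1. Bnip3, a hypoxia-induced mitophagy receptor, was at 85.2, 34.9 and 31.6 against 0.438, 0.623 and 0.873 CPM (6.25 ± 0.46, adjusted p = 8.7e-06, and 5.64 ± 0.22, adjusted p = 3.3e-07 without TDLN CIS 1).

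Markers of other cell types were tested in the same fits. All 13 tested neutrophil genes with all libraries, and all 14 without TDLN CIS 1, were called higher in the TDLN. S100a9, a calcium-binding protein of neutrophil cytosol, measured 227, 1537 and 1552 CPM in the TDLN and 2.63, 4.11 and 3.74 CPM in the LN (8.29 ± 1.16, adjusted p = 0.00037, and 8.77 ± 1.00, adjusted p = 0.00011 without TDLN CIS 1). Ltf, the lactoferrin of neutrophil granules, was at 169, 1843 and 1924 CPM in the TDLN and had no count in the LN, at least 3317-fold higher (adjusted p = 0.0030, and 0.0022 without TDLN CIS 1). TDLN CIS 1 held far less of both than the other TDLN libraries. Of 12 mast cell and basophil genes 2 were called higher with all libraries (3 at an unadjusted p under 0.05 and 3 by DESeq2), 0 without any other of the 6 libraries and 5 without TDLN CIS 1. The share over all genes was 26.7% with all libraries and 31.3% without TDLN CIS 1.

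Lymphocyte lists differed from each other. Of 13 genes of natural killer and innate lymphoid cells 7 were called lower and 1 higher with all libraries, and 7 and 2 without TDLN CIS 1. Their levels summed to 312, 2079 and 1946 CPM in the TDLN and 1566, 1505 and 1563 CPM in the LN. By this sum TDLN CIS 2 and 3 held more than the LN, and only TDLN CIS 1 held less. Gzma, a granzyme of killer cells, had no count in the TDLN and measured 58.9, 59.4 and 57.4 CPM in the LN, at least 168-fold lower in the TDLN (adjusted p = 2.3e-05, and 1.2e-05 without TDLN CIS 1). Prf1, the pore-forming perforin, was at 15, 11.9 and 19 against 116, 102 and 119 CPM (-2.88 ± 0.29, adjusted p = 4.8e-05, and -2.86 ± 0.33, adjusted p = 0.00012 without TDLN CIS 1). Of 14 T cell genes 4 were lower and 0 higher, with or without TDLN CIS 1. The shares over all genes were 16.6% and 26.7% with all libraries, and 21.7% and 31.3% without TDLN CIS 1. For 8 of the 14, TDLN CIS 1 lay below every LN library while TDLN CIS 2 and 3 lay above them. The median log2 fold change was -0.22 with all libraries and 0.24 without TDLN CIS 1. Cd8a measured 3.95, 11.5 and 10.4 CPM in the TDLN and 195, 181 and 189.9 CPM in the LN (-4.45 ± 0.49, adjusted p = 8.2e-05, and -4.10 ± 0.45, adjusted p = 8.1e-05 without TDLN CIS 1). Cd4, a coreceptor also carried by some macrophages and dendritic cells, did not pass the test (0.49 ± 0.39, adjusted p = 0.33, and 0.28 ± 0.44, adjusted p = 0.62 without TDLN CIS 1). The T cell markers summed to 842, 3215 and 3424 CPM in the TDLN and 3593, 3475 and 3558 CPM in the LN. Only TDLN CIS 1 lay far below. Of 16 B cell genes 1 was higher with or without TDLN CIS 1. By edgeR 12 were lower without that library and 0 with it (also 0 at an unadjusted p under 0.05), while DESeq2 called 3 and 1. Cd79a, a signalling chain of the B cell receptor, measured 1321, 92.4 and 101 CPM in the TDLN and 1454, 1374 and 1412 CPM in the LN (-1.48 ± 1.18, adjusted p = 0.33, and -3.87 ± 1.18, adjusted p = 0.020 without TDLN CIS 1).

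Dendritic cell genes went in both directions, and Flt3 and Zbtb46 were among the lower. Flt3, the growth factor receptor of dendritic cell precursors, measured 10.2, 25.8 and 27 CPM in the TDLN and 94.7, 89.7 and 90.5 CPM in the LN (-2.13 ± 0.31, adjusted p = 0.00049, and -1.80 ± 0.16, adjusted p = 2.6e-05 without TDLN CIS 1). Zbtb46, a transcription factor of conventional dendritic cells, was at 20.3, 45.5 and 49.5 against 104, 91.3 and 101 CPM (-1.36 ± 0.27, adjusted p = 0.0027, and -1.05 ± 0.12, adjusted p = 9.5e-05 without TDLN CIS 1). Over all genes 16.6% were lower and 26.7% higher with all libraries, and 21.7% and 31.3% without TDLN CIS 1. Of 12 conventional dendritic cell genes 3 were lower and 2 higher with all libraries, and 4 in each direction without TDLN CIS 1 (median 0.72 and 0.02). Xcr1, a receptor of cross-presenting dendritic cells, was one of the higher, at 5.98, 10.6 and 8.15 CPM in the TDLN and without a count in the LN. Every library of the series outside MSM LN CIS held at least 4.19 CPM of Xcr1, over the total count. Clec9a, of the same list, was lower in the TDLN. Its log2 fold change was -8.55 to -4.37 when each of the 6 libraries was left out in turn (adjusted p of 0.0045 to 0.044). Of 15 genes of migratory dendritic cells 3 were lower and 1 higher, or 2 and 2 without TDLN CIS 1 and 1 and 1 without any LN library or TDLN CIS 2. Of 8 melanocyte genes 4 were lower and 2 higher, with or without TDLN CIS 1. Dct, a melanin synthesis enzyme, measured 12.4, 3.12 and 3.69 CPM in the TDLN and 182, 175 and 174 CPM in the LN (-4.77 ± 0.85, adjusted p = 0.0015, and -5.70 ± 0.97, adjusted p = 0.0011 without TDLN CIS 1). Sox10, a transcription factor of melanocytes and glia, had no count in the TDLN and was at 9.21, 8.34 and 9.98 CPM in the LN. Mitf and Tyr, also of that lineage, had no count in the LN and were at 2.63, 3.0 and 3.95 and 2.33, 2.64 and 3.56 CPM in the TDLN. Stromal and endothelial genes were higher in 5 of 11, in 4 with 3 lower without TDLN CIS 1, and in 2 to 4 without any other of the 6 libraries. Plasma cell genes were higher in 2 and lower in 1 of 7, near the shares over all genes. Without TDLN CIS 1 the counts were 3 and 1, with 0 or 1 higher without any other library. Erythroid genes were lower in 3 of 4, or in 4 without TDLN CIS 1. The presence of these cells in any library was not tested.

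The 15 genes of each direction with the largest difference in level, among those called in both fits with no overlap and a mean of at least 10 CPM, were named by a fixed rule. The higher genes were Ngp, Ltf, Chil3, Camp, Alox15, Cd177, Alox5, F5, Serpinb2, Ltb4r1, Inpp5j, S100a9, G0s2, Rxra and Emilin2. Ngp, Ltf, Camp, Cd177 and S100a9 belong to the neutrophil list. Alox15, a lipoxygenase of eosinophils and resident macrophages, measured 21.2, 539 and 512 CPM in the TDLN, and F5, coagulation factor V, 14.1, 250.1 and 219 CPM. Alox5, which starts leukotriene synthesis, was at 132, 200.3 and 201 CPM and had 3 counts in all in the LN (adjusted p = 4.6e-07, and 1.6e-07 without TDLN CIS 1). Of these genes Rxra was the only one with more in TDLN CIS 1 (238 CPM) than in TDLN CIS 2 and 3 (63.3 and 61.7 CPM).

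The lower genes were Als2cl, Gzma, Eomes, Sorcs2, Dll4, Zfp781, Mmp17, Dct, Cd8a, Plcl1, Dapl1, Smim5, Ifit1bl1, Rundc3b and Lef1. Eomes, a transcription factor of killer cells, measured 0, 0.720 and 0.509 CPM in the TDLN and 39.6, 31.9 and 35.8 CPM in the LN (-6.44 ± 0.75, adjusted p = 0.00031, and -5.82 ± 0.31, adjusted p = 7.4e-06 without TDLN CIS 1). Lef1, a transcription factor of naive T cells, was at 3.65, 8.76 and 10.1 against 123, 134 and 129 CPM (-4.11 ± 0.31, adjusted p = 1.1e-05, and -3.77 ± 0.13, adjusted p = 2.2e-07 without TDLN CIS 1). Als2cl, first in the ranking with levels set to at least 3 counts, was at 0.506, 0.360 and 0.127 against 121, 119 and 128 CPM (-8.42 ± 0.84, adjusted p = 0.00013, and -8.87 ± 1.09, adjusted p = 0.00044 without TDLN CIS 1). The calls of Mmp17 and Dapl1 were lost without any LN library (adjusted p of 0.0858 to 0.0956 and 0.0518 to 0.0576), and that of Mmp17 also without TDLN CIS 2 or 3 (0.0957 and 0.0982), that of Dapl1 without TDLN CIS 2 (0.0548).

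Part of the higher genes were missing from the LN libraries although other libraries of every cell type held them. Of 8116 protein-coding genes at 5 CPM or more in at least 90% of the other 45 libraries, 136 stood at 3 counts or fewer in each of the 3 MSM LN CIS libraries. The same count was 159 for the MSM TDLN PBS libraries, 0 for the MSM TDLN CIS libraries and 0 to 5 in the remaining groups. Nbeal2, a granule protein, and Relt, a TNF receptor relative, head the list for LN CIS, and Rxra, Emilin2, Tlr13, Pros1, Bub1b, Fancc and Xcr1 are in it. Zfp143, a zinc-finger activator of housekeeping promoters, measured 26.5, 31.3 and 30.2 CPM in MSM TDLN CIS and 0.146, 0.996 and 0.624 CPM in MSM LN CIS. Nbeal2, Relt and Zfp143 were chosen after their values were seen. In the 42 libraries of the series other than MSM LN CIS and MSM TDLN PBS, Zfp143 measured at least 13.1 CPM per library, here over the total count. What sets these genes near 0 in the LN CIS libraries was not tested.

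**Figure D5:**
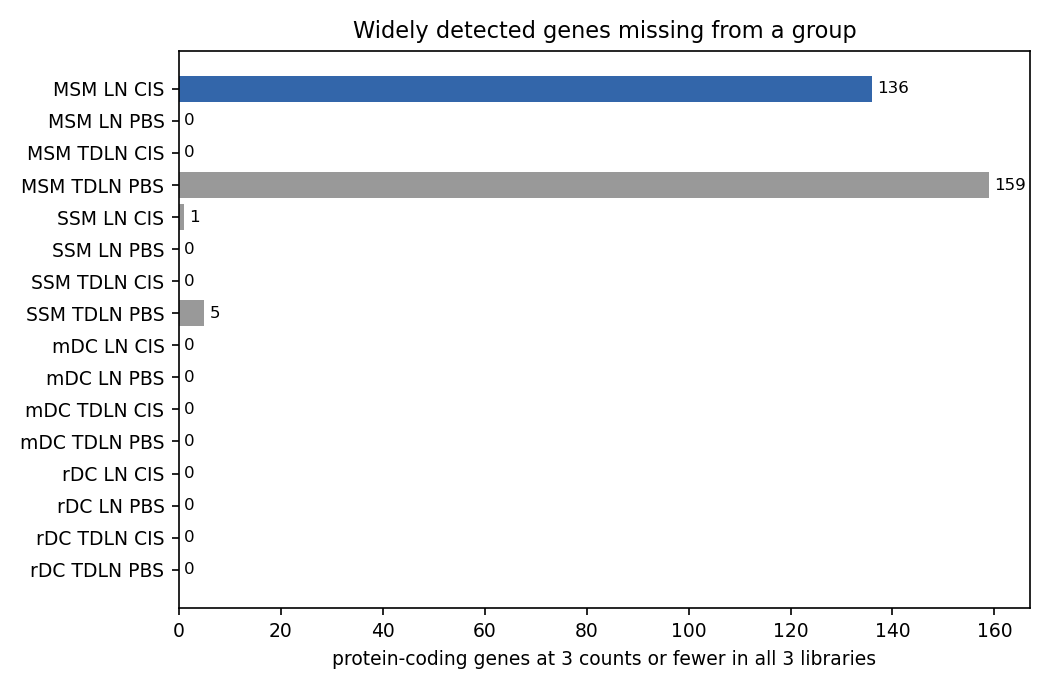
Number of widely detected protein-coding genes that stand at 3 counts or fewer in all 3 libraries of a group, for each of the 16 groups of the series. MSM LN CIS (136) and MSM TDLN PBS (159) stand apart from the other 14 groups, which have 0 to 5.

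The node difference was also set against that of MSM after PBS, in the same fit. With PBS 1974 genes (11.6%) were higher and 4515 (26.6%) lower in the TDLN. The node difference with cisplatin exceeded that with PBS for 5289 genes (31.1%) and fell short of it for 1639 (9.64%), with a median of 0.58 over all genes. Adgre1 measured 313, 295 and 295 CPM in the TDLN and 549.6, 197 and 551 CPM in the LN with PBS, and its node difference was larger with cisplatin by 7.27 ± 0.69 (adjusted p = 3.1e-05). For Il1rl1, at 11.9, 11.5 and 12.4 CPM in the TDLN and 43.1, 10.9 and 42.3 CPM in the LN with PBS, it was larger by 6.96 ± 1.03 (adjusted p = 0.00045). In each case the LN libraries were low with cisplatin and not with PBS. Hsph1 was at 83, 88 and 81.4 CPM in the TDLN and 99.4, 102 and 91.5 CPM in the LN with PBS, and the node difference with cisplatin minus that with PBS was -2.91 ± 0.30 (adjusted p = 5.7e-05). For Oas2, at 2.15, 4.12 and 3.37 and 28.4, 36.9 and 27.5 CPM with PBS, the difference between the node differences did not pass the test (0.37 ± 0.42, adjusted p = 0.53). MSM LN PBS 2 also resembled SSM libraries, and leaving it out with TDLN CIS 1 gave 7898 genes higher and 4056 lower in this comparison.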

How the data were processed

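The authors deposited expected counts per gene as whole numbers. The submitters' processing notes name STAR, RSEM 1.3.0, DESeq2 1.38.3 and the GRCm38 build, with no order. GENCODE vM21 gave a symbol for 99.5% of the 55487 genes, and 0 columns belonged to no sample. With edgeR 4.0.16 (limma 3.58.1, R 4.3.3) the 12 MSM libraries were fitted with 1 mean per group, after filterByExpr and TMM scaling, and the quasi-likelihood test of TDLN against LN after cisplatin was adjusted by Benjamini-Hochberg over all genes. The same fit was run without TDLN CIS 1. Standard errors were obtained by dividing a log2 fold change by the square root of its F statistic. The common coefficient of variation was 0.418, and 0.311 without TDLN CIS 1. CPM use TMM-scaled library sizes, and the floor of 3 counts covers counting error only.

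Named genes are the first 15 per direction by the ratio of mean levels, among 1874 higher and 1432 lower genes called in both fits, at 10 CPM or more on average and without overlap. From each list up to 6 members with the smallest adjusted p are named, plus members of the marker, IL-1, MHC class II and macrophage lists. Predicted, receptor segment and Y genes were not named, and some members are not reported here. The members, lists and tests were chosen with earlier results of these data known. Alternatives were DESeq2 1.42.0, its size factors, no filter, a replicate block, the compared libraries alone and leaving out each library. Correlations of deviations from the group mean were 0.0494, 0.0729 and 0.0124 for the same replicate number and -0.0656 to 0.0141 for other numbers. Because TDLN CIS 1 stands apart from TDLN CIS 2 and 3, these values cannot decide whether the libraries are paired. On simulated counts 45% of 4-fold and 10% of 2-fold changes were recovered with 4 unchanged genes called among 15661, and 59% and 16% with 6 among 17133 without TDLN CIS 1. Promoters are RefSeq windows of GRCm38.p6. Python 3.11.15 was used for tables and figures.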

Additional observations from a re-analysis of the deposited data

Results flagged for a closer look

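The node difference of MSM differed between cisplatin and PBS, by the interaction term of the 12-library fit, for 5289 genes in the higher and 1639 in the lower direction. Groups of 3 were not tested for a single library standing apart. The values below are the log2 node difference with cisplatin minus that with PBS, and the genes beyond Adgre1, Il1rl1 and Hsph1 were picked by a rule of size after values were seen.

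Dab2, an endocytic adaptor, reached 17.47 and Marco 17.12, and both were smaller without TDLN CIS 1 or without LN PBS 2. Dab2 measured 655, 2.76 and 3.05 CPM in TDLN CIS and 10.4, 678 and 11.1 CPM in LN PBS, and Marco 1044, 3.60 and 4.71 and 0.620, 1392 and 1.04 CPM, so TDLN CIS 1 and LN PBS 2, which both resemble SSM libraries, were the highest of their groups. Dab2 stayed called without any single library (11.25 to 19.35) and without both (6.79), while the call of Marco (adjusted p = 0.012) was lost without LN PBS 2 (0.179), and without both libraries its value was 1.62 (0.0617). F13a1, a coagulation transglutaminase, was at 14.19, with 464, 70.0 and 64.4 CPM in TDLN CIS, 2.19, 1.74 and 1.62 CPM in LN CIS, 1.08, 0.750 and 1.48 CPM in TDLN PBS and 31.2, 518 and 30.3 CPM in LN PBS. Zfp143 was at 10.92, with 0.956, 0.750 and 0.135 CPM in TDLN PBS and 28.9, 24.6 and 24.4 CPM in LN PBS. Ngp, a neutrophil granule protein, was at 10.98, with 2739, 2810.1 and 2705 CPM in TDLN PBS and 1523, 10.2 and 1477 CPM in LN PBS.

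In the lower direction Cd8a was at -4.72, and Slco5a1 at -4.84, Tarbp1 at -4.75, Pdzk1 at -4.69 and Ttc28 at -4.62. Slco5a1 measured 39.9, 41.5 and 44.3 CPM in LN CIS and 1.36, 1.63 and 3.65 CPM in LN PBS, and Tarbp1 53.6, 52.4 and 55.4 and 3.72, 5.54 and 2.87 CPM. Adgre1 was at 7.27, Il1rl1 at 6.96 and Hsph1 at -2.91.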

How the results depend on the processing

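With all libraries the counts of 4546 higher and 2817 lower genes became 4574 and 3531 with DESeq2, 4236 and 3214 with its size factors (which moved the median of all genes to 0.07), 4618 and 2490 without a filter and 3455 and 2678 with the 6 libraries alone. Leaving out each library gave 3260 to 5821 higher and 1893 to 4029 lower. Without TDLN CIS 1 and LN PBS 2 together it was 7643 and 6029, and 4056 genes were lower in the comparison of node differences. Without TDLN CIS 1, leaving out TDLN CIS 2 or 3 as well left 1 TDLN library, assumed to vary like the other groups, and lowered the lower count to 2358 and 2349 (all left-out libraries 2349 to 3300). With a replicate block the counts were 3721 and 2329, and 4827 and 3278 without TDLN CIS 1; of the genes named, the block lost the calls of Timd4, C1qb, C1qc, Il18r1, Ccr7, Mmp17 and, between node differences, Marco (adjusted p = 0.0579). No gene called between TDLN and LN after cisplatin with all libraries was called in the opposite direction under these alternatives, and between node differences 2 were, without TDLN CIS 1 and LN PBS 2. Cd209b changed sign without TDLN CIS 1 (-2.37, against up to 7.13 without another library) and without it and LN PBS 2 (-2.37). The difference between the node differences of Il33 did so without LN PBS 2 (-0.94) or TDLN CIS 1 (-0.07), against up to 8.17 without another library, and without both (-8.58). The cause of these changes was not tested. Depth does not resolve levels below 0.304 to 0.438 CPM, the CPM of 3 counts, and changes of 2-fold were mostly missed in simulated counts.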
